A study of Caenorhabditis elegans with 8 samples.

Results

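The enzymes described here are the cytochrome P450s (cyp), UDP-glucuronosyltransferases (ugt) and glutathione S-transferases (gst) of the nematode Caenorhabditis elegans, in starved first-stage (L1) larvae. Members were taken by symbol: every gene whose RefSeq symbol starts with cyp-, ugt- or gst- and a number, represented by the transcript whose base means sum to the most over the authors' 3 tables, where that sum was above 0. The base mean is the mean of scaled read counts over the 4 libraries of a comparison. There were 175 members, 70 cyp, 61 ugt and 44 gst, among 39875 distinct symbols that the 50832 transcripts of each table carry. Of 191 such symbols in the RefSeq table, 6 of them pseudogenes, 182 were in the authors' deposited tables and 7 of these had a base mean of 0 in all 3.

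These families handle small fat-soluble molecules, both foreign chemicals and the animal's own lipids and steroids. P450s insert oxygen into the substrate, and UGTs then attach a sugar and GSTs attach glutathione, which makes the product soluble for export. In C. elegans much of this work is done in the intestine, many members are induced by chemicals, and the families have expanded into runs of similar neighbouring genes.

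Whole L1 larvae of 4 groups were sequenced, with 2 libraries each. The groups were N2 as the wild type, spr-5 mutants with the allele by101 on chromosome I, met-2 mutants with n4256 on chromosome III, and spr-5; met-2 double mutants carrying both alleles. The product of spr-5 removes methyl groups from lysine 4 of histone H3, and that of met-2 adds them to lysine 9. Each library came from 200 to 250 pooled larvae that hatched at room temperature (21 to 22 °C) and starved overnight in M9 buffer, from cultures fed OP50 at 20 °C. Nothing in the labels says whether the 2 libraries of a group came from separate cultures, so every p-value measures only the spread between these libraries. Each of the authors' deposited tables compares 1 mutant group with N2 and holds no value of a single library, so depth per library is unknown here and no spread over samples can be given. The targeted genes had reads in the mutants: in the authors' deposited tables, the log2 fold change of spr-5 was 0.90 (SE 0.74) in the spr-5 mutant and 1.26 (SE 0.95) with both alleles, and that of met-2 was -0.43 (SE 0.69) in the met-2 mutant and -0.45 (SE 0.97) with both. Transcription of an allele does not show that its protein is made, so these values do not check the labels.

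Levels were compared between genes as base mean per kilobase of coding sequence, so that long and short genes can be set side by side. By the sum of this level over the authors' deposited tables, the most abundant members were GSTs. gst-20 stood at 915, 681 and 816 per kilobase in the authors' deposited tables, given here and from now on, where 3 values follow each other, in the order spr-5, met-2, double mutant. gst-42, which resembles the maleylacetoacetate isomerase of tyrosine breakdown, stood at 818, 693 and 606 in the same order in the authors' deposited tables. gst-12 stood at 558, 367 and 962 per kilobase in the authors' deposited tables, and was the highest of all members in the double-mutant comparison. gst-36 and gst-1 followed, with 302 to 365 and 254 to 368 per kilobase over the authors' deposited tables.

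The leading P450 was cyp-37B1, at 349, 350 and 238 per kilobase in the authors' deposited tables of spr-5, met-2 and the double mutant. cyp-32B1 stood at 191 to 243 per kilobase and cyp-37A1 at 105 to 172 over the authors' deposited tables. The gene of cyp-37A1 overlaps F01D5.8 on the opposite strand. cyp-32A1 and cyp-36A1 came next, with 76.9 to 129 and 100.5 to 109 in the authors' deposited tables. cyp-36A1 acts downstream of the oxygen sensor EGL-9 and the hypoxia factor HIF-1 in worm behaviour. The leading UGTs were ugt-46, at 257, 257 and 244 per kilobase, and ugt-58, at 206, 210 and 313, in the authors' deposited tables. Below them, ugt-18 spanned 119.1 to 249 per kilobase, ugt-44 126 to 148 and ugt-55 70.4 to 99.1 over the authors' deposited tables. The tables were normalized separately, so small shifts between them have no error of their own.

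**Figure D1:**
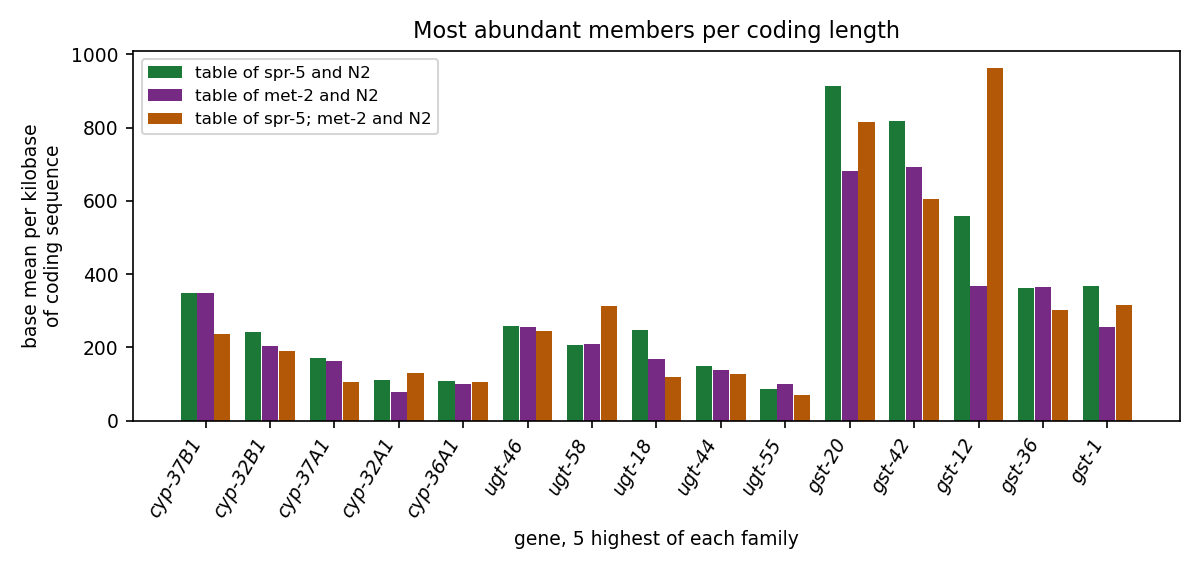
Base mean per kilobase of coding sequence (vertical axis) for the 5 most abundant members of each family, with 1 bar for each of the authors' 3 tables. gst-20, gst-42 and gst-12 stand above every cyp and ugt, and gst-12 reaches 962 in the table of the double mutant.

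Most members, like most transcripts, had a base mean under 50. A base mean of 50 or more was reached by 58, 55 and 54 members in the authors' deposited tables, and by 48 in all 3. Of all transcripts with a fold change, 7138 of 29720, 6910 of 29076 and 6904 of 27634 reached it. The median base mean of the members was 16.4, 16.1 and 17.6, against 6.02, 5.67 and 5.91 over those transcripts, in the authors' deposited tables. A base mean under 10 in all 3 of the authors' deposited tables was found for 50 members. The level went with the number of transcripts the authors' deposited tables list for a gene. The 162 cyp, ugt and gst genes listed with 1 coding transcript had a median sum of base means of 60.8 and none was at 0, whereas the 19 listed with more than 1 had a median of 3.03 and 6 were at 0. These 6, cyp-31A5, cyp-34A9, ugt-9, ugt-17, ugt-21 and ugt-26, were named after their values were seen. The same held over all genes with a coding transcript, where 3.91% of 14518 genes with 1 transcript and 19.8% of 3561 genes with more than 1 were at 0 in the authors' deposited tables. How reads shared by transcripts of a gene were counted is not given in the sources used here and its part in these values was not tested, so a low value of such a gene is not taken here as low expression. An example is gst-10, which conjugates the lipid peroxidation product 4-hydroxynonenal, listed with 2 transcripts and base means of 0.52, 0.98 and 0.27 in the authors' deposited tables.

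**Figure D2:**
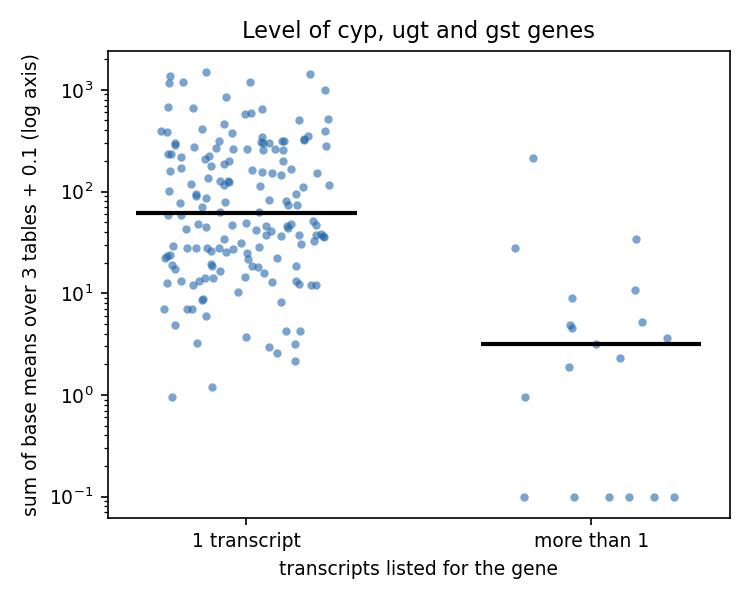
Sum of base means over the 3 tables plus 0.1 (vertical log axis) for each cyp, ugt and gst gene, split by whether the tables list 1 or more than 1 transcript for it. The bars mark the medians, 60.8 for genes with 1 transcript and 3.03 for genes with more than 1, and the points on the lowest line are the 6 genes at 0.

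No cyp, ugt or gst gene was called changed in any of the 3 mutants. By the authors' DESeq2 test at an adjusted p under 0.05, 0 of 175 members were called for spr-5, where 0.0101% of all transcripts with an adjusted p were. For met-2 it was 0 of the members that had an adjusted p, which 55 of 174 lacked, against 0.0647% of all transcripts that had one, in the authors' deposited table. For the double mutant it was 0 of 106 members, with 66 more lacking an adjusted p, against 0.709%, in the authors' deposited table. At an unadjusted p under 0.05, 2 of 175 members passed for spr-5 (1.14%), against 1.15% of all transcripts that have a p-value, by the authors' deposited table. Both were higher than N2, as were 0.871% of all transcripts, while 0.283% were lower. For met-2, 2 of 174 members passed (1.15%), against 1.42%, and both were lower, as were 0.519% of all transcripts, while 0.901% were higher, in the authors' deposited table. The single-mutant shares were thus near the background. For the double mutant 8 of 172 members passed (4.65%), against 2.82% of all transcripts in the authors' deposited table. Of these 8, 7 were lower than N2 (4.07% of members, against 1.07% of all transcripts) and 1 was higher (0.581%, against 1.74%). At a base mean of 10 or more, the lower share was 7 of 104 members (6.73%), against 2.04% of all such transcripts, in the authors' deposited table. At a base mean of 50 or more, 0 of 58, 1 of 55 and 5 of 54 members passed in either direction, against 2.33%, 2.39% and 5.03% of all such transcripts in the authors' deposited tables. Transcripts of a table are not independent replicates, so these shares are a description.

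In double mutants the fold changes of the members were also more widely spread. Among members with a base mean of 50 or more, the median absolute log2 fold change was 0.33, 0.33 and 0.73 in the authors' deposited tables. Over all transcripts with a base mean from 50 up to that of the highest member it was 0.37, 0.35 and 0.49 in the authors' deposited tables. The median base mean of those transcripts was 134, 129 and 134, against 106, 104 and 103 for the members, so the level was not matched. A log2 fold change of -1 or less was found for 13 of 54 members (24.1%) in double mutants, against 8.20% of those transcripts, and one of 1 or more for 6 of 54 (11.1%), against 13.5%, in the authors' deposited table. For spr-5, 4 of 58 members had a value of -1 or less, against 4.79% of those transcripts, and 0 had a value of 1 or more, against 6.84%, in the authors' deposited table. For met-2 the counts were 3 of 55, against 4.28%, and 0, against 4.88%, in the authors' deposited table. The shares of members at -1 or less were 6.90% and 5.45% in these tables. The members' median standard error at that base mean was 0.83, 0.78 and 1.05, close to the 0.81, 0.75 and 1.02 of the same transcripts in the authors' deposited tables.

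The family medians lay near 0. Over members whose base mean was 10 or more, the median log2 fold change of the P450s was -0.0081, 0.07 and 0.0028 in the authors' deposited tables. The UGTs were lower, with medians of -0.28 (10 of 30 above 0), -0.26 (13 of 32) and -0.16 (14 of 32) in the same order in the authors' deposited tables. The GSTs had medians of 0.16 (21 of 33 above 0), -0.07 (12 of 28) and 0.19 (17 of 30) in the authors' deposited tables. Over all transcripts at that base mean, the median was -0.0095, -0.01 and 0.02, and 49.3%, 48.9% and 51.2% lay above 0, in the authors' deposited tables. With no base mean minimum the UGT medians were -0.14, -0.19 and -0.39, against 0.06, 0.01 and -0.17 over all transcripts, in the authors' deposited tables. At a minimum of 50 the double-mutant UGT median was -0.41, against 0.08 over all transcripts, in the authors' deposited table. The double-mutant median of the P450s was -0.32 with no minimum and 0.21 at 50, and that of the GSTs was -0.08 and -0.09, so neither has a stable sign. The 3 comparisons share the N2 libraries, so a UGT median below 0 in each of them is not 3 separate findings.

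**Figure D3:**
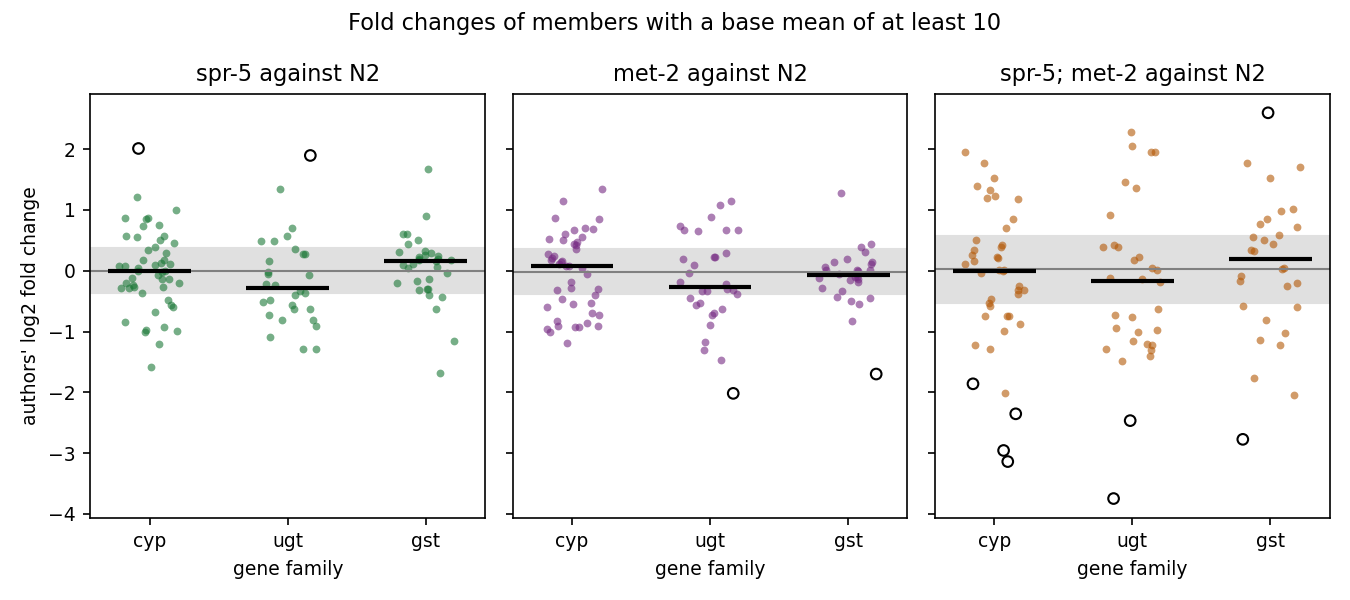
Authors' log2 fold change (vertical axis) of each member whose base mean was 10 or more, by family, in the 3 comparisons with N2; black bars are family medians, open circles members with an unadjusted p under 0.05, and the grey band the interquartile range of all transcripts. The points spread further in double mutants, where 7 of the 8 circles lie below 0.

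Among the P450s, 4 of 70 (5.71%) had an unadjusted p under 0.05 in double mutants, against 2.82% of all transcripts, by the authors' deposited table. All 4 were lower than N2, as were 1.07% of all transcripts. cyp-13B1 (transcript NM_077832) had a base mean of 31.7 and a log2 fold change of -3.14 (SE 1.16, unadjusted p 0.00701) by the authors' deposited table for double mutants. In spr-5 and met-2 its values were -0.28 (SE 0.84) and -0.05 (SE 0.81), and its base means 59.6 and 62.2, in the authors' deposited tables. The low value of cyp-13B1 was therefore seen in the double-mutant table, while the single-mutant values lay within 1 standard error of 0. cyp-34A5 (transcript NM_071698) had -2.96 (SE 1.22) in double mutants, -0.93 (SE 0.85) in spr-5 and -0.83 (SE 0.87) in met-2, in the authors' deposited tables. For cyp-43A1 (transcript NM_076560) the authors' deposited tables gave -2.35 (SE 1.15) in double mutants, -0.57 (SE 0.80) in spr-5 and -0.9996 (SE 0.75) in met-2. cyp-37B1 (transcript NM_074708), the most abundant P450 per coding length, had -1.86 (SE 0.93) in double mutants, -0.60 (SE 0.73) in spr-5 and -0.41 (SE 0.68) in met-2, in the authors' deposited tables. All 4 had adjusted p-values from 0.314 to 0.817 by DESeq2 in double mutants. The genes of cyp-37B1 and cyp-43A1 overlap F28G4.2 and C41G11.1 on the opposite strand in WBcel235, and the use of strand in counting is not given in the sources used here, so their values are uncertain.

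Other P450s of higher base mean (50 or more) stood at the ends of the range in a table without an unadjusted p under 0.05. In double mutants, cyp-34A10 had -2.01 (SE 1.21), cyp-13A5 1.53 (SE 1.05) and cyp-25A3 1.32 (SE 1.07), in the authors' deposited table. For cyp-13A5 the single and double mutants lay on different sides of 0: the authors' deposited tables gave -0.97 (SE 0.83) in spr-5 and -0.91 (SE 0.79) in met-2, and its base mean was 65.1, 62.8 and, in the table of the double mutant, 193. No test of that difference can be made from these tables. cyp-25A2 had -1.58 (SE 0.90) in spr-5, -0.87 (SE 0.82) in met-2 and -1.28 (SE 1.23) in double mutants, by the authors' deposited tables. The HIF-1 pathway gene cyp-36A1 lay below 0 throughout, with -1.01 (SE 0.83), -1.19 (SE 0.75) and -0.87 (SE 1.01) in the authors' deposited tables. It overlaps figo-1 on the opposite strand. cyp-32A1 had -0.91 (SE 0.79) in met-2, and cyp-33C7 and cyp-33C4 had the highest P450 values there and in spr-5, 0.70 (SE 0.76) and 0.87 (SE 0.85), in the authors' deposited tables.

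In spr-5, cyp-33C12 (transcript NM_071198) was the P450 with an unadjusted p under 0.05. Its log2 fold change was 2.01 (SE 0.92, unadjusted p 0.0294) in spr-5, 0.75 (SE 0.88) in met-2 and 1.04 (SE 1.37) in double mutants, by the authors' deposited tables. The gene is low, with base means of 17.1, 5.21 and 4.66 in the authors' deposited tables. Its neighbour cyp-32B1 is far more abundant and had 0.56 (SE 0.73), 0.35 (SE 0.69) and 0.34 (SE 0.97) in the authors' deposited tables.

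Chemical-inducible P450s differed in level in starved larvae. Of the cyp-35A genes, which respond to many foreign compounds in the intestine and affect fat storage, cyp-35A2 was the abundant one, with base means of 95.4, 68.1 and 154 and log2 fold changes of 0.11 (SE 0.84), -0.47 (SE 0.83) and 1.23 (SE 1.04) in the authors' deposited tables. cyp-35A3 and cyp-35A5 had base means from 3.54 to 10.9 and log2 fold changes from -0.39 to 0.86 over the authors' deposited tables. The insulin-pathway-responsive cyp-35B1 had -1.21 (SE 0.93) in spr-5, 0.85 (SE 0.85) in met-2 and -0.58 (SE 1.25) in double mutants, by the authors' deposited tables. cyp-13A7, which rifampicin induces, had base means of at most 4.30 in the authors' deposited tables, whereas cyp-14A5 had base means of 106, 81.2 and 157 and log2 fold changes of -0.19 (SE 0.88), -0.73 (SE 0.80) and 0.85 (SE 0.99). cyp-44A1, a P450 of the mitochondrial type, had 0.17 (SE 0.84), 0.44 (SE 0.79) and -0.32 (SE 1.26) in the authors' deposited tables. It overlaps npp-24 on the same strand.

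cyp-31A2 and cyp-31A3, near-identical copies required for the lipid barrier of the eggshell, lay above 0 in all 3 comparisons. cyp-31A3 had base means of 18.5, 22.6 and 22.2 and log2 fold changes of 0.75 (SE 0.93), 1.15 (SE 0.90) and 1.39 (SE 1.31) in the authors' deposited tables. For cyp-31A2 the log2 fold changes were 1.21 (SE 0.91), 0.75 (SE 0.87) and 1.26 (SE 1.36) in the authors' deposited tables. Each lies within 2 standard errors of 0, and reads that fit both copies make the split between them uncertain.

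Among the UGTs, ugt-37 (transcript NM_072410) had the lowest value of all members. Its log2 fold change was -3.75 (SE 1.34) in double mutants, -1.28 (SE 0.93) in spr-5 and -1.31 (SE 0.91) in met-2, in the authors' deposited tables. With an unadjusted p of 0.00517 and an adjusted p of 0.266 by DESeq2 in double mutants, it was the member nearest to a call. Its base means were 16.6, 15.9 and 12.9, and it overlaps ugt-40 on the same strand. ugt-22 (transcript NM_070232) had -2.46 (SE 1.21, unadjusted p 0.0413) in double mutants, -0.82 (SE 0.85) in spr-5 and -0.73 (SE 0.84) in met-2, in the authors' deposited tables, and it overlaps srz-29 on the opposite strand.

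The single mutants had 1 UGT each with an unadjusted p under 0.05, of 61 in spr-5 (1.64%) and of 60 in met-2 (1.67%). Over all transcripts the shares were 1.15% and 1.42%, by the authors' deposited tables. ugt-1 (transcript NM_073270) had -2.02 (SE 0.81, unadjusted p 0.0133) in met-2, against 0.57 (SE 0.83) in spr-5 and -0.94 (SE 1.05) in double mutants, by the authors' deposited tables. Its neighbour ugt-2 lay on the same side of 0 in each, with 0.70 (SE 0.83), -0.39 (SE 0.82) and -0.74 (SE 1.12) in the authors' deposited tables. ugt-15 (transcript NM_073810) had 1.90 (SE 0.92, unadjusted p 0.0401) in spr-5, -0.29 (SE 0.78) in met-2 and 0.56 (SE 1.37) in double mutants, with base means of 33.1, 3.18 and 7.08 in the authors' deposited tables. Whether these values differ between mutants was not tested.

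The 5 UGTs most abundant per kilobase lay within 2 standard errors of 0 in each table. ugt-46 had log2 fold changes of -0.80 (SE 0.75), -0.62 (SE 0.69) and -0.63 (SE 0.97), and ugt-44 had -0.56 (SE 0.75), -0.56 (SE 0.69) and -0.75 (SE 0.95), in the authors' deposited tables. ugt-58 lay above 0 throughout, with 0.50 (SE 0.74), 0.67 (SE 0.70) and 1.47 (SE 0.98) in the authors' deposited tables. For ugt-18 the values were 0.48 (SE 0.76), -0.23 (SE 0.70) and -1.22 (SE 1.00) in the authors' deposited tables. ugt-55 and ugt-62 lay below 0 in each, ugt-55 from -1.40 to -0.34 and ugt-62 from -1.47 to -1.09, over the authors' deposited tables. ugt-55 overlaps T04H1.12 on the same strand. Among members whose base mean was 50 or more, ugt-61, ugt-24 and ugt-48 were among the 5 highest in met-2. Their values there were 0.65 to 0.67 (SE 0.75 to 0.88) in the authors' deposited table. In double mutants they had 0.05 (SE 1.23), -1.30 (SE 1.18) and -0.98 (SE 1.08), on base means of 38.3, 24.2 and 46.6. ugt-48 overlaps cft-1 on the opposite strand. Whether the values of these 3 genes differ between mutants was not tested.

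Among the GSTs, gst-41 (transcript NM_072493) was low in all 3 comparisons. Its log2 fold change was -1.69 (SE 0.87, unadjusted p 0.0528) in spr-5, -1.70 (SE 0.78, unadjusted p 0.0305) in met-2 and -2.77 (SE 1.20, unadjusted p 0.0207) in double mutants, by the authors' deposited tables. It had base means of 83.8, 81.5 and 68.0. The same N2 libraries enter each value, so the 3 are not independent. gst-35 (transcript NM_171054) had the highest value of all members, 2.60 (SE 1.08, unadjusted p 0.0157) in double mutants, with an adjusted p of 0.475 by DESeq2. In spr-5 and met-2 it had -0.30 (SE 0.92) and 0.39 (SE 0.88), and its base means were 15.6, 22.5 and, in the table of the double mutant, 88.4, in the authors' deposited tables.

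gst-12, the most abundant member in the table of the double mutant, had log2 fold changes of 0.32 (SE 0.76) in spr-5, -0.54 (SE 0.72) in met-2 and 1.53 (SE 0.99) there, in the authors' deposited tables. gst-4, whose promoter is the usual reporter of the oxidative stress factor SKN-1, had 1.67 (SE 0.91, unadjusted p 0.0679) in spr-5, 0.29 (SE 0.87) in met-2 and 1.77 (SE 1.24, unadjusted p 0.152) in double mutants, by the authors' deposited tables. It was low, with base means of 20.5, 6.19 and 14.3, and overlaps dhs-12 on the same strand. gst-3, of the same array, had 0.90 (SE 0.79), 0.0045 (SE 0.74) and 0.50 (SE 1.00) in the authors' deposited tables. gst-1, studied in dopamine neurons exposed to manganese, had 0.60 (SE 0.75), -0.0056 (SE 0.71) and 0.56 (SE 1.03), and gst-42 had 0.23 (SE 0.73), 0.0096 (SE 0.68) and -0.21 (SE 0.95), in the authors' deposited tables. The 2 other leading GSTs, gst-20 and gst-36, ranged from -0.14 to 0.33 and from -0.80 to -0.29 over the authors' deposited tables; gst-36 overlaps scav-5 on the opposite strand.

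**Figure D4:**
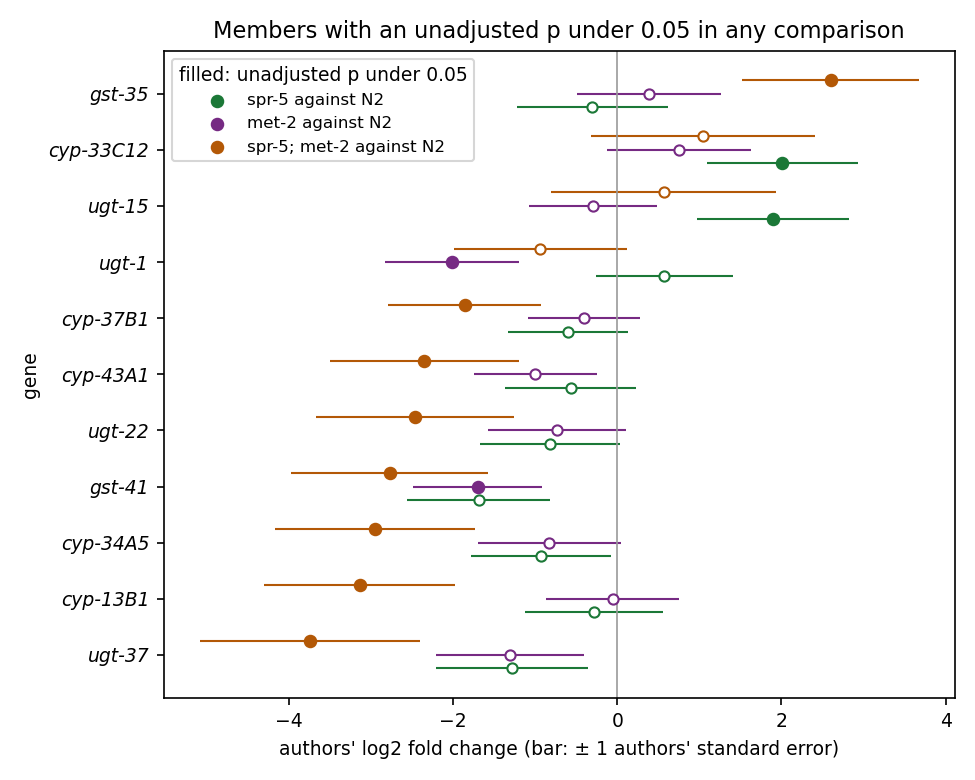
Authors' log2 fold change (horizontal axis, bars of 1 authors' standard error) of the 11 members with an unadjusted p under 0.05 in any comparison, shown for each mutant against N2; filled points mark the comparison in which that p was reached. The double-mutant points of 7 genes lie below -1.8 and that of gst-35 lies at 2.60.

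The families are clustered in the genome. Of the 175 members, 87 are on chromosome V and 37 on chromosome II, and 86 stand in 26 arrays, meaning runs of at least 2 members of 1 family with no other protein-coding gene between them in WBcel235. Of adjacent pairs in which both genes had a base mean of 10 or more, 15 of 26 lay on the same side of 0 in spr-5, 9 of 16 in met-2 and 12 of 19 in double mutants, by the authors' deposited tables. The share for other adjacent genes was not computed. The following arrays were picked after their values were seen, and some of their genes lie under that base mean. In double mutants all 3 of gst-3, gst-2 and gst-4 lay above 0, from 0.44 to 1.77, and all 4 of the array from cyp-35A5 to cyp-35B3 lay below 0, from -0.93 to -0.0094, by the authors' deposited table. cyp-32B1 and cyp-33C12 lay above 0 in all 3 of the authors' deposited tables, as given above. The arrays that follow held both signs. In the array of 9 GSTs that starts with gst-20, gst-12 lay at 1.53 in double mutants beside gst-14 at -2.60 (SE 1.35, base mean 8.28), in the authors' deposited table. In the cyp-13A array on chromosome II, cyp-13A5 lay at 1.53 between cyp-13A4 at -1.24 (SE 1.26, base mean 2.72) and cyp-13A6 at 0.0047 (SE 1.34), by the authors' deposited table for double mutants. In the cyp-34A array, the low value of cyp-34A5 was next to values of 0.23 for cyp-34A6 (base mean 2.18), 0.0078 for cyp-34A7 and 0.70 for cyp-34A8, by the authors' deposited table for double mutants. ugt-16, between ugt-18 and ugt-15, had 2.27 (SE 1.26) in double mutants and -0.04 (SE 0.80) and -0.01 (SE 0.85) in the single mutants spr-5 and met-2, with base means of 5.15, 4.94 and 26.4, in the authors' deposited tables. Similar neighbours can share reads, and how the authors' counting treated such reads is not given in the sources used here.

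**Figure D5:**
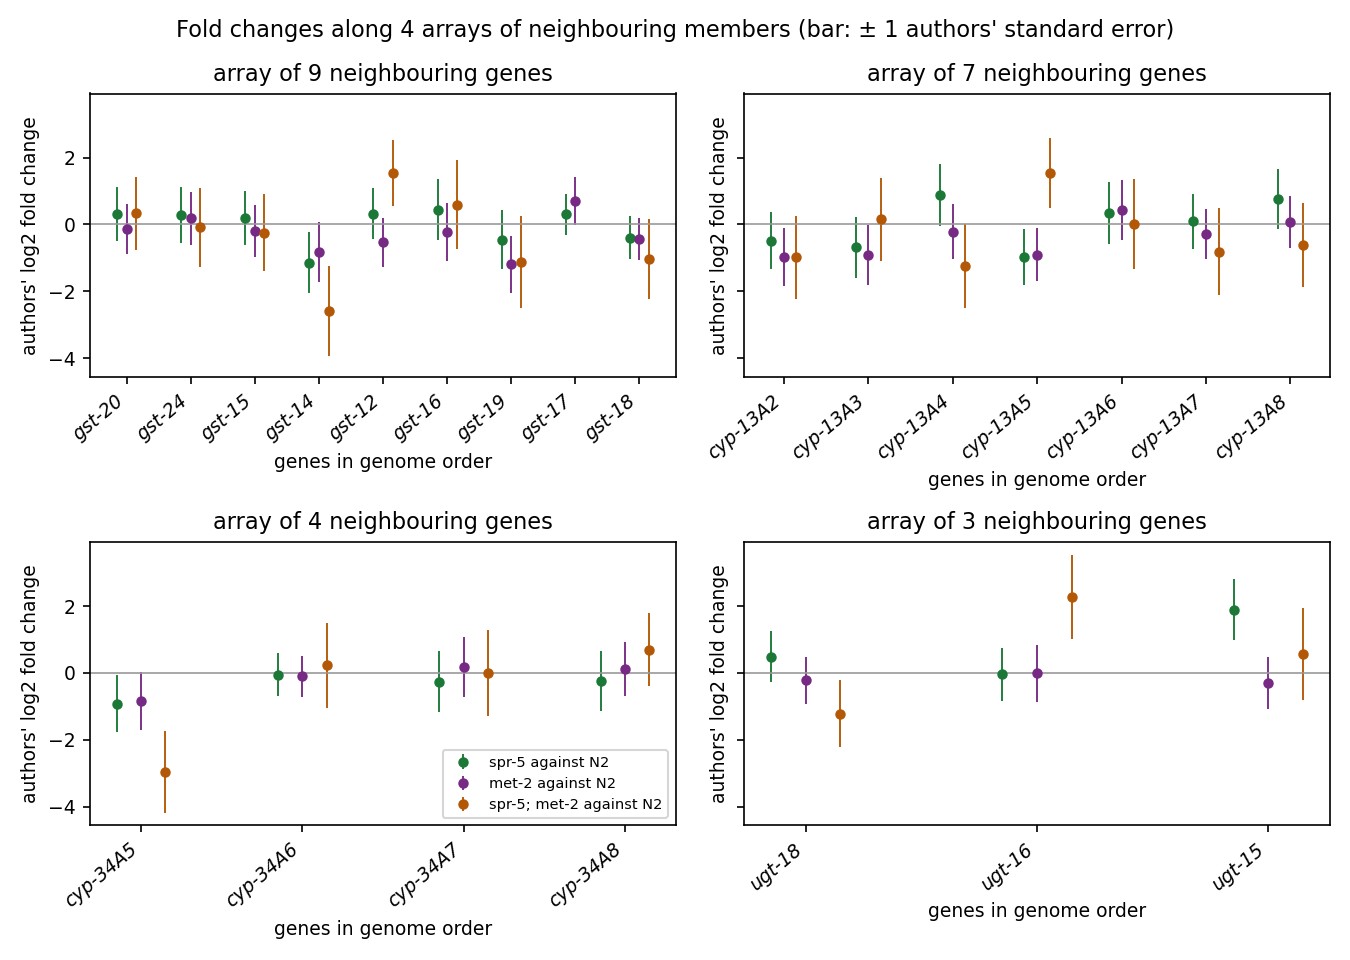
Authors' log2 fold change (vertical axis, bars of 1 authors' standard error) of the members of 4 arrays in genome order, for each mutant against N2. These arrays were picked after their values were seen and hold double-mutant values of both signs, such as gst-12 at 1.53 and gst-14 at -2.60; gst-17 has no fold change in the double-mutant table.

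Other genes of the same chemistry were read from 6 lists. None of these lists held a gene with an adjusted p under 0.05 in any of the authors' deposited tables. Of 15 regulators, 11 had reads, and nhr-8, nhr-86, mdt-15 and aha-1 were listed at 0. nhr-8 is listed with 2 transcripts and nhr-86, mdt-15 and aha-1 with 1 each. How reads were counted is not fully given, so these zeros are not taken here as a lack of expression. skn-1, which encodes that stress factor, had log2 fold changes of 1.05 (SE 0.80), 0.39 (SE 0.74) and 0.92 (SE 0.98), and the list's median over genes with a base mean of 10 or more was 0.29, -0.25 and 0.68, in the authors' deposited tables. A list of 6 P450 partners, steroid enzymes and related genes had 5, 5 and 4 genes at that base mean. Their medians were 0.12, 0.35 and 0.41, in the authors' deposited tables. On this list daf-36, the Rieske oxygenase at the start of dafachronic acid synthesis, had 2.69 (SE 0.88, unadjusted p 0.00235, adjusted p 1.00 by DESeq2) in spr-5, in the authors' deposited table. Of 12 genes of glutathione and thiol supply, 9, 9 and 8 reached that base mean, with medians of -0.42, -0.06 and -0.24, in the authors' deposited tables. Of these 12, trxr-2, a mitochondrial thioredoxin reductase, had 1.63 (SE 0.81) in met-2, by the authors' deposited table. sod-3, a superoxide dismutase induced by DAF-16, had -3.33 (SE 1.30) in double mutants, by the authors' deposited table. Of 45 other oxidases and dehydrogenases with reads, 35 had a base mean of 10 or more in double mutants and 11 of these lay above 0, and their median was -0.31, by the authors' deposited table. The lowest were the short-chain dehydrogenases dhs-7 at -3.57 (SE 1.26), dhs-14 at -3.24 (SE 1.13) and dhs-21 at -2.36 (SE 1.08), in the authors' deposited table. In spr-5 and met-2 that list had medians of -0.02 and 0.05 in the authors' deposited tables. Of 11 other conjugating enzymes, 8, 8 and 6 reached a base mean of at least 10, with medians of 0.24, 0.25 and -0.13, in the authors' deposited tables. Of 23 transporters of the pgp, mrp and haf families, 20, 19 and 20 reached it, with medians of -0.06, -0.02 and -0.24, in the authors' deposited tables. Over all 23 transporters the double-mutant median was 0.18.

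Tissue markers stood beside these values. Of 12 intestine markers, 11 had reads, and opt-2 had no transcript listed. The summed base mean of the 11 was 25477, 29995 and 18132 in the authors' deposited tables of spr-5, met-2 and the double mutant. In double mutants 1 of the 11 lay above 0, elt-2, the main intestinal GATA factor, at 0.57 (SE 0.95), and the median was -0.51, while in the single mutants spr-5 and met-2 it was -0.24 and 0.18, in the authors' deposited tables. None of the 11 had an unadjusted p under 0.05. The yolk protein genes are expressed by the adult intestine, and L1 larvae were expected to lack their transcripts. The origin of these reads was not tested. Among them vit-5, with a base mean of 107, fell by 4.25 on the log2 scale (SE 1.04, adjusted p 0.00947 by DESeq2) in double mutants, by the authors' deposited table. In spr-5 it had -1.57 (SE 0.77, unadjusted p 0.0421), with the median of the 3 yolk genes at -1.21, and in met-2 -0.03 (SE 0.86), by the authors' deposited tables. In double mutants vit-4 had -3.66 (SE 1.35) and vit-2 -0.96 (SE 1.30), by the authors' deposited table, and vit-3 and vit-6 were listed at 0 or without a transcript. Of 5 germline markers, 4 lay above 0 in double mutants, with 2.96 (SE 0.97) for glh-1, 2.77 (SE 0.99) for mex-5 and 2.77 (SE 1.04) for gld-1 (adjusted p from 0.168 to 0.328 by DESeq2), and with pgl-1 at -0.82 (SE 1.17) and pgl-3 at 0.47 (SE 1.19) on base means of at most 1.36, in the authors' deposited table. The values of glh-1 were 0.68 (SE 0.82) for spr-5 and 1.68 (SE 0.72, unadjusted p 0.0198) for met-2, by the authors' deposited tables. The germline markers' summed base mean was 483, 547 and 1677 in the same order of tables. Of 4 muscle markers, 3 had reads, and unc-15 had no transcript listed. Their summed base mean was 75241 to 94784 in the authors' deposited tables. Their medians were 0.05, -0.02 and -0.43, over 3, 3 and 2 genes. At a base mean of 10 or more, the medians were -0.05, -0.05 and -0.43, each over 2 genes, in the authors' deposited tables. Of 5 hypodermis and 5 neuron markers, 4 and 3 had reads, with summed base means of at most 79.5 and 47.1 in the authors' deposited tables. Their medians were -0.0012, 0.10 and -0.66, and 0.04, 0.10 and -0.24, in the authors' deposited tables. elt-3, listed with 2 transcripts, and unc-31, listed with 18, were at 0, and snb-1 had no transcript listed. These gaps are not taken here as low expression. In whole larvae, fewer cells of a type and less RNA per cell cannot be told apart, and the part of tissue composition in the members' values was not tested.

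The standard errors set how much these comparisons can show. The smallest absolute log2 fold change that was called for any transcript was 4.38, 3.22 and 3.57 in the authors' deposited tables. For members whose base mean was 50 or more, the normal 95% interval from the standard error stayed within a 4-fold change in both directions for 31 of 58 in spr-5, 36 of 55 in met-2 and 0 of 54 in double mutants. For each of these 54 members the double-mutant table therefore leaves a 4-fold change possible in at least 1 direction.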

How the data were processed

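RNA-seq of 8 libraries, 2 in each of 4 groups, came as 3 headerless tables, each setting 1 mutant against N2. FastQC, Trimmomatic, featureCounts and DESeq2 2.11.40.2 with build ce10 are named in the submitters' processing notes. Aligner, annotation and strand setting are not given in the sources used here. The authors deposited, per transcript, the base mean (a signal value, the mean of scaled counts over 4 libraries), the log2 fold change and its standard error on the log2 scale, the Wald score, the p-value and the adjusted p-value. Units were read from the values, since the score equals the fold change over its error. The sources used here do not say whether the deposited fold changes were shrunken, but values near the floor look shrunken towards 0. ugt-4, with base means of 0.31, 0.28 and 0.27, had log2 fold changes of -0.20 (SE 0.61), -0.17 (SE 0.58) and -0.31 (SE 1.15) in the authors' deposited tables. Medians, spreads and intervals carry this, and how far it differs between the tables was not tested. The number of columns of single libraries left unused was 0.

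Symbols and gene order came from the RefSeq table of WBcel235, which differs from ce10, so no coordinates are given; 46074 transcripts matched. Coding length is the longest of a gene in Ensembl release 115, found for 175 members. Medians, counts and recomputed Benjamini-Hochberg values were made with Python 3.11.15 and pandas 2.3.3; the adjustment was tested on simulated data. Calls are the authors' own, at an adjusted p under 0.05.

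The members, lists, thresholds and rules were chosen with earlier results of these data known. Named genes are members called in any table, the 5 highest and 5 lowest at a base mean of at least 50 in each table, up to 15 with an unadjusted p under 0.05, the 5 most abundant of each family per kilobase, and those with textbook roles. Exceptions were chosen after their values were seen: neighbours in arrays, genes of the fixed lists and genes at 0. Alternatives were a stricter adjusted p, recomputed adjustment, a minimum fold, other base mean minimums and another choice of transcript.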

Additional observations from a re-analysis of the deposited data

How the results depend on the processing

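The count of 0 called members held in each of the 3 comparisons under an adjusted p of 0.01, a recomputed Benjamini-Hochberg adjustment, a minimum log2 fold change of 1, a base mean of at least 10 and another choice of transcript; with 0 calls these say nothing about stability. The 2, 2 and 8 members with an unadjusted p under 0.05 in spr-5, met-2 and the double mutant became 0, 1 and 5 at a base mean of at least 50, where fewer members were counted, and stayed 2, 2 and 8 at a base mean of at least 10 and with the transcript of the largest base mean in each table. Of 27 alternatives to the family medians, 5 had the other sign. For P450s in met-2 they were -0.02 with no minimum and -0.0053 at 50, against 0.07 at 10. P450s in the double mutant had -0.32 with no minimum, against 0.0028 at 10. GSTs in the double mutant had -0.08 with no minimum and -0.09 at 50, against 0.19 at 10. The largest move of a median was 0.32. It was under the members' median standard error, but that is an error of single genes and not of a median. In size the move was above every family median at a base mean of at least 10, of which the furthest from 0 was -0.28. No paired analysis was possible because no values of single libraries were at hand. For the same reason leaving out a library and TMM scaling were not run. Alternatives that needed protein or promoter sequences were not run.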

Other observations

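Several UGTs, P450s and GSTs with a base mean under 50 also lay far from 0 in the double mutant without an unadjusted p under 0.05. They were picked after their values were seen. ugt-31 had a log2 fold change of 2.06 on a base mean of 40.8, ugt-27 one of 1.958 on 23.9 and ugt-20 one of 1.952 on 43.6, in the authors' deposited table. cyp-13B2 had 1.959 (SE 1.27) on a base mean of 38.2 and cyp-35A4 had 1.77 (SE 1.31) on 33.6, in the authors' deposited table. On the other side, gst-14 had -2.60 (SE 1.35) on a base mean of 8.28 and gst-26 had -2.04 (SE 1.31) on 22.1, in the authors' deposited table. Differences between mutants were not tested.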
